A study of Homo sapiens with 9 samples.

Results

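YY1 peaks just upstream of the transcription start site (TSS) were described in SK-N-MC cells that expressed a fragment of huntingtin (Htt) with an expanded or an unexpanded glutamine stretch. A peak belonged to them when it was annotated as a promoter within 1 kb and its nearest edge lay 1 to 1000 bp before the TSS. This rule used position alone and took 1226 of 23002 peaks, with 1225 carrying a gene symbol and 1184 distinct symbols among them. The 11202 peaks that overlapped the TSS (distance 0) served as the reference. All upstream peaks were 401 bp wide, as were all other peaks but 1, so levels could be compared between peaks. Distances recomputed from GENCODE v44 matched the annotation for 1226 of 1226 upstream peaks, but 57 of them held the TSS of another GENCODE transcript, and the symbol was the GENCODE name of the annotated transcript in 1123. The symbol therefore names the nearest annotated TSS and not a gene shown to be controlled from the peak.

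YY1 was immunoprecipitated from 3 samples labelled as biological replicates per group. HttQ89 cells overexpressed Htt residues 1 to 550 with 89 glutamines (Htt1-550Q89), and HttQ23 cells overexpressed the same residues with 23 glutamines (Htt1-550Q23). Both groups were SK-N-MC cells, which the labels call neuroblastoma with a wild-type genotype, transfected with EGFP-tagged plasmids by lipofection, so both carried extra Htt. The sources used here do not give the time after transfection. The 3 input libraries were not used here, and values are normalised read counts, that is, reads in a peak scaled to the depth of the library.

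YY1 is a zinc finger transcription factor that acts as an activator or a repressor depending on the promoter and its partners. Its best known motif holds the core ATGGCG, and at many promoters this motif lies just downstream of the TSS in the sense orientation. DNA just upstream of a TSS holds proximal promoter elements and, at divergent promoters, the start of a transcript that runs the other way.

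The sequences below are shown because the strongest upstream peaks carried the YY1 motif in both orientations. Each is 61 bases of GRCh38 around the motif, read 5′ to 3′ in the direction of the gene, and capitals mark the core ATGGCG or its reverse complement, widened to AANATGGCG where that longer motif was present.
HEXIM2, chr17:45161471-45161531, plus strand: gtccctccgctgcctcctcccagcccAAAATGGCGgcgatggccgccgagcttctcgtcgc
MORF4L1, chr15:78873577-78873637, plus strand: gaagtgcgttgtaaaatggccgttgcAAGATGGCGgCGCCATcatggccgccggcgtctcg
SPEN, chr1:15834948-15835008, plus strand: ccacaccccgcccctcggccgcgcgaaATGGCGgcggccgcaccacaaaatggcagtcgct
DYNC2I2, chr9:128656983-128657043, minus strand: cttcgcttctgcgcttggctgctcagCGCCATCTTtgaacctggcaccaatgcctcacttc
ZC3H4, chr19:47112319-47112379, minus strand: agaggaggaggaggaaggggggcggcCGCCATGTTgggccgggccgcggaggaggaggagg
TMEM131, chr2:97996169-97996229, minus strand: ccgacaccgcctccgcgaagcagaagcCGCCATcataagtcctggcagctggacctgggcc
The longer motif ran with the gene at HEXIM2 and MORF4L1 and against it at DYNC2I2 and ZC3H4. SPEN held the core with the gene and TMEM131 held it against the gene. The motif shown lay 378 bp upstream of the TSS at HEXIM2, 120 bp at MORF4L1 and 1120 bp at SPEN, and 170 bp at DYNC2I2, 106 bp at ZC3H4 and 254 bp at TMEM131.

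These peaks were among the strongest upstream of a TSS. The peak 101 bp upstream of TMEM131, which encodes a membrane protein with a role in collagen secretion, had the highest mean. It read 1335, 692 and 2184 in HttQ89 replicates 1, 2 and 3, against 2389, 994 and 2538 in HttQ23 replicates 1, 2 and 3. In both groups replicate 2 was the lowest and replicate 3 the highest, and the groups overlapped, with a log2 fold change of −0.53 ± 0.56 (SE), or 0.01 after median centring of the libraries, and an adjusted p in limma of 0.818. CCDC124, a ribosome-associated factor, read 652, 390 and 1312 in HttQ89 and 1113, 450 and 1836 in HttQ23 and held no core. HEXIM2, an inhibitor of the elongation kinase P-TEFb, read 812, 488 and 1167 in HttQ89 and 955, 660 and 1098 in HttQ23, in a peak that also held the TSS of 3 other transcripts. The HttQ89 and HttQ23 values of these genes overlapped throughout.

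SPEN, a transcriptional repressor, read 588, 457 and 1117 in HttQ89 and 1191, 555 and 1018 in HttQ23. DYNC2I2, a chain of the motor that returns cargo along cilia, read 580, 336 and 1098 in HttQ89 and 896, 492 and 1348 in HttQ23. AKT1S1, a brake on the growth kinase mTORC1, read 729, 389 and 1124 in HttQ89 and 657, 397 and 1306 in HttQ23. At all 3 the lowest value of each group came from replicate 2. MORF4L1, a chromodomain protein of histone acetyltransferase complexes, read 670, 371 and 966 in HttQ89 and 914, 523 and 996 in HttQ23. ZC3H4, which restricts noncoding transcription, read 484, 321 and 736 in HttQ89 and 935, 480 and 863 in HttQ23, a log2 fold change of −0.59 ± 0.53 (SE, limma, adjusted p = 0.818). TAF4, a subunit of the general factor TFIID, read 658, 325 and 457 in HttQ89 and 782, 546 and 321 in HttQ23, and was alone among the genes of this paragraph in having its lowest HttQ23 value in replicate 3.

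Of the 12 strongest upstream peaks, with means between 413 and 1689, 10 lay within 200 bp of the TSS, 8 held the core and 5 held the longer motif. TENT4A, a non-canonical poly(A) polymerase, was next to last among them. Its peak 166 bp upstream of the TSS read 160, 189 and 667 in HttQ89 and 681, 408 and 468 in HttQ23, so that HttQ89 replicates 1 and 2 lay below every HttQ23 library and replicate 3 did not (log2 fold change −0.89 ± 0.54 (SE), limma, adjusted p = 0.818, and 0.0470 without HttQ89 replicate 3). Without HttQ89 replicate 1 the log2 fold change of TENT4A was −0.51. Its TSS-overlapping peak, 1615 bp away, read 35.0, 160 and 189 in HttQ89 and 195, 185 and 149 in HttQ23. MIR1281, a microRNA gene, came last with 327, 198 and 552 in HttQ89 and 567, 409 and 422 in HttQ23. All 12 log2 fold changes lay between −0.89 and −0.03, and 10 of the 12 turned positive after median centring and 9 after TMM scaling.

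**Figure D1:**
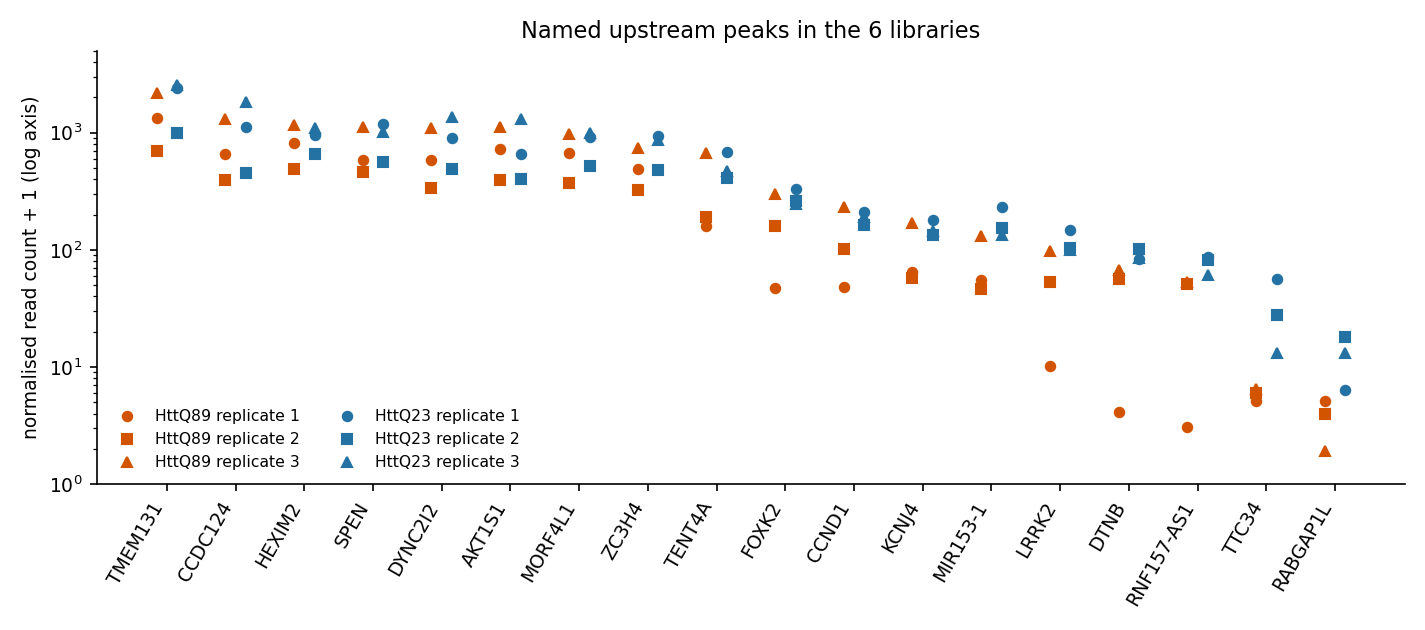
Normalised read count plus 1 on a log axis at 18 named upstream peaks, with HttQ89 libraries in orange left of HttQ23 libraries in blue and 1 symbol per replicate. The strongest peaks on the left overlapped between groups, while the 6 peaks on the right (MIR153-1 to RABGAP1L) had every HttQ89 library below every HttQ23 library.

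The first comparison asked how strongly YY1 occupied upstream peaks relative to peaks over the TSS. The median upstream peak read 14.4, 28.2 and 52.5 in HttQ89 replicates 1, 2 and 3 and 44.6, 41.4 and 43.8 in HttQ23 replicates 1, 2 and 3. The median TSS-overlapping peak read 36.0, 47.4 and 100.5 in the HttQ89 libraries and 93.3, 72.2 and 81.4 in the HttQ23 libraries. Upstream peaks were thus the weaker class in 6 of 6 libraries. The within-library difference of medians on log2(value + 1) was −0.94 ± 0.19 (SD, n = 6), or 0.521-fold, with an exact two-sided sign-flip p of 0.03125, which is the smallest that 6 libraries can give. Over the 9 comparisons of this kind made here its Benjamini-Hochberg value was 0.0703, so it did not pass 0.05 after that correction. The median GC content was 69.8% in upstream and 71.8% in TSS-overlapping peaks, and the difference was −0.44 among peaks above 69.8% GC and −1.02 among the rest, a split chosen after the data were seen. Over peaks above 0 in all 6 libraries it was −0.45.

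Upstream peaks also went undetected more often than TSS-overlapping peaks. A value of 0 was found in 25.4%, 7.01% and 1.71% of them in HttQ89 replicates 1, 2 and 3 and in 8.65%, 6.20% and 2.12% in HttQ23 replicates 1, 2 and 3. In TSS-overlapping peaks the shares were 12.03%, 2.92% and 0.652% in HttQ89 and 3.93%, 2.86% and 0.777% in HttQ23. Within the upstream peaks the share at 0 was 11.4% ± 12.5 in HttQ89 and 5.66% ± 3.30 in HttQ23 (SD, n = 3 each), a difference of 5.74 percentage points with an exact two-sided permutation p of 0.7 (Benjamini-Hochberg 0.788), where 3 against 3 libraries cannot give less than 0.1. The difference rested on HttQ89 replicate 1, and without that library it was −1.29 percentage points. A zero in that library alone was found in 224 upstream peaks (18.3%) and in 1090 TSS-overlapping peaks (9.73%).

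Promoter peaks on the other side of the TSS had similar values. The 2189 promoter peaks 1 to 1000 bp downstream of the TSS had a median 6-library mean of 36.2, against 36.4 upstream, and all 23002 peaks had 33.2. In HttQ89 replicate 1, 24.7% of downstream and 22.5% of all peaks were at 0, beside the 25.4% of upstream peaks. TSS-overlapping peaks had a median mean of 73.2. Upstream and downstream peaks were not tested against each other.

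**Figure D2:**
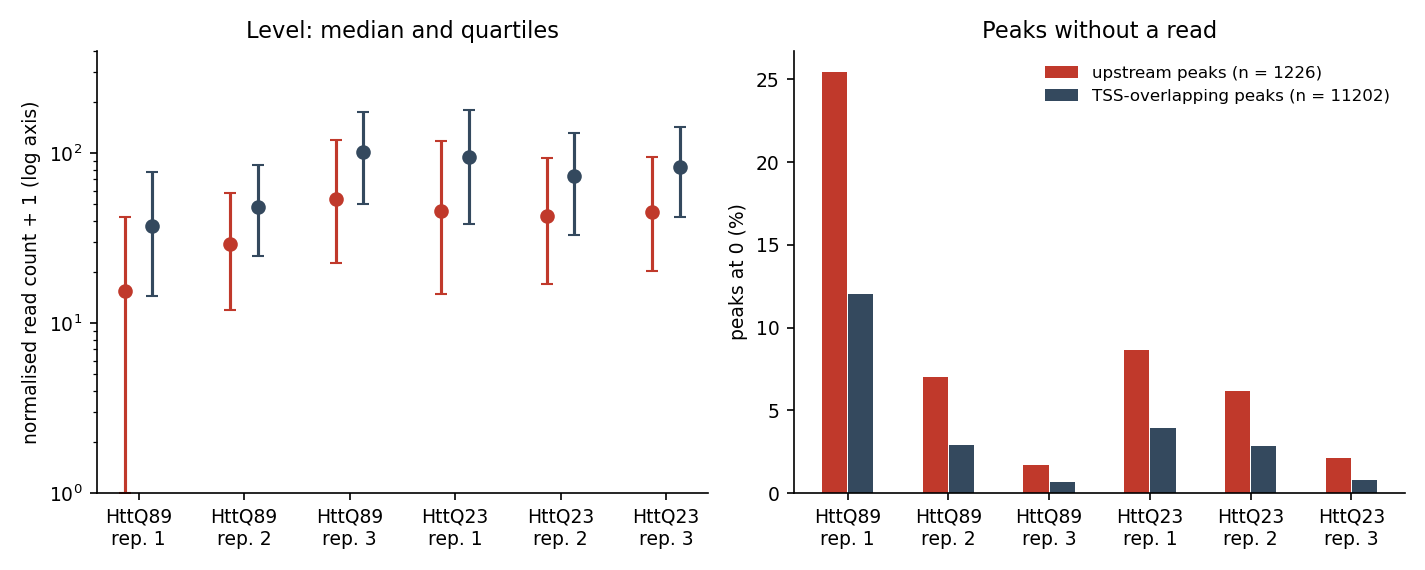
Left, median and quartiles of the normalised read count plus 1 (log axis) of upstream peaks (red, n = 1226) and TSS-overlapping peaks (grey, n = 11202) in each library. Right, percent of those peaks at 0. Upstream peaks had the lower median and the larger share at 0 in all 6 libraries, and HttQ89 replicate 1 had 25.4% of them at 0.

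Peaks in the same band of HttQ23 mean were then set side by side. The ratios use that same mean, so the bands match the classes in strength only roughly. Between 20 and 50 the median HttQ23 mean was 31.6 upstream and 32.9 over the TSS. Among peaks with an HttQ23 mean between 20 and 50, HttQ89 replicate 1 had 42.1% of 349 upstream and 25.9% of 2367 TSS-overlapping peaks at 0, and its median value was 0.133 times the HttQ23 mean upstream and 0.391 times over the TSS. In the same band HttQ89 replicate 2 had 4.58% of upstream and 4.61% of TSS-overlapping peaks at 0, with median ratios of 0.647 upstream and 0.643 over the TSS, and HttQ89 replicate 3 had ratios of 1.11 upstream and 1.29 over the TSS. Between 50 and 100 the ratios in HttQ89 replicate 1 were 0.351 upstream and 0.400 over the TSS, and between 100 and 200 they were 0.408 upstream and 0.438 over the TSS. Below 20, HttQ89 replicate 1 had 35.5% of 330 upstream and 27.3% of 1241 TSS-overlapping peaks at 0, with ratios of 0.485 and 0.809 in that order. There the TSS-overlapping peaks had the larger share at 0 in HttQ23 replicates 1 (30.9% against 27.9% upstream) and 2 (22.1% against 20.9% upstream). In HttQ89 replicate 1 the gap between the classes was thus wider in peaks between 20 and 50 than in the stronger bands, and being 1 library it was not tested.

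Position within the upstream kilobase went with strength. The peaks gathered near the TSS, with 405 at 1 to 100 bp, 242 at 101 to 200 bp, 303 beyond these up to 500 bp and 276 at 501 to 1000 bp, and a median distance of 182 bp. The median level of the nearest band was 25.7, 37.6 and 75.1 in HttQ89 replicates 1, 2 and 3 and 65.8, 57.4 and 63.9 in HttQ23 replicates 1, 2 and 3. In the farthest band it was 7.21, 19.8 and 26.7 in the HttQ89 libraries and 27.6, 27.6 and 25.4 in the HttQ23 libraries. The near band was the higher in 6 of 6 libraries, by 1.27 ± 0.29 on the log2 scale (SD, n = 6), or 2.41-fold (exact two-sided sign-flip p = 0.03125, Benjamini-Hochberg 0.0703). GC content moved with distance, at a median of 71.6% in the nearest and 68.3% in the farthest band, and the difference was 1.15 among upstream peaks above 69.8% GC and 0.75 among the rest. It was 0.72 over peaks above 0 in all 6 libraries. Over the 1226 peaks, which share their libraries, the Spearman correlation of the mean level was −0.27 with distance and 0.59 with GC content.

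**Figure D3:**
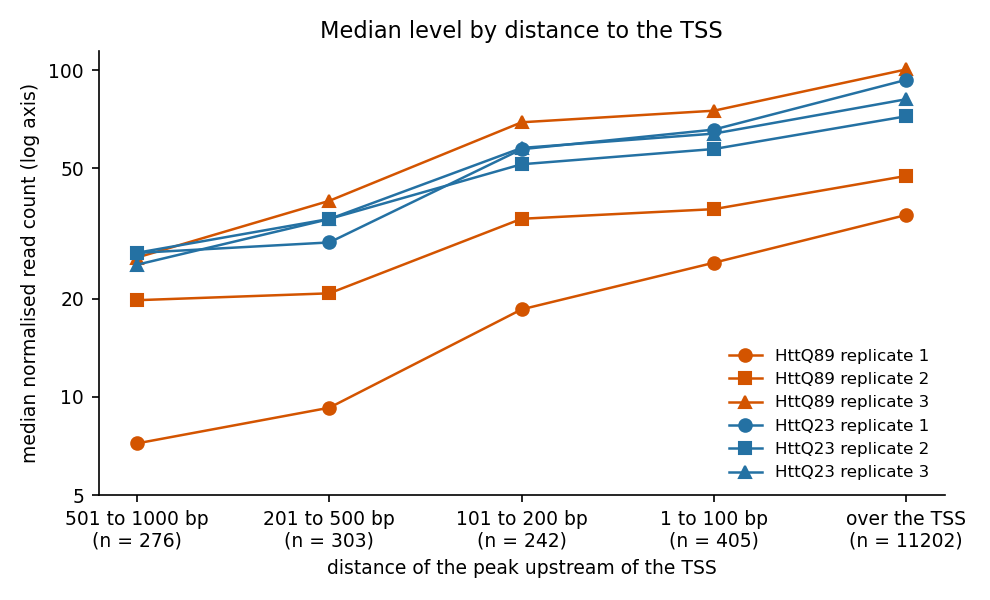
Median normalised read count (log axis) in 4 bands of distance upstream of the TSS and over the TSS, with HttQ89 libraries in orange and HttQ23 libraries in blue. The median was higher at 1 to 100 bp than at 501 to 1000 bp in each of the 6 libraries, and highest over the TSS.

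Some peaks beyond 200 bp were strong all the same. SPEN stood at 907 bp, and APOLD1, a gene known from endothelial cells, read 321, 268 and 596 in HttQ89 and 564, 328 and 529 in HttQ23 at 395 bp. Among other features, 104 upstream peaks (8.48%) had the TSS of another gene on the opposite strand within 1000 bp, in 57 cases a long noncoding RNA and in 39 a coding gene. ZC3H4 faced SAE1 in this way and AKT1S1 faced TBC1D17. The median of the 6-library mean was 64.2 in these divergent peaks and 34.9 in the other 1122. Of all upstream peaks 81.2% belonged to coding and 14.9% to long noncoding RNA transcripts, against 88.6% coding and 10.3% long noncoding among TSS-overlapping peaks, and the median of the mean was 40.5 at coding and 25.2 at long noncoding transcripts upstream.

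The comparison within genes held the gene fixed. Of the upstream peaks 321 belonged to genes that also had a TSS-overlapping peak, giving 310 genes, usually at a different start site of the same gene (median distance between peak centres 9686 bp). Where a gene had several upstream or several TSS-overlapping peaks, the strongest by mean was taken, so the level chose the peak compared. The upstream peak minus its partner was −1.34 ± 0.28 on the log2 scale (SD, n = 6), or 0.396-fold, and negative in 6 of 6 libraries (exact two-sided sign-flip p = 0.03125, Benjamini-Hochberg 0.0703). The upstream peak had the higher mean in 82 of 310 genes (26.5%), lay above its partner in every library in 39 and lay below it in every library in 154. NELFA, part of the complex that holds RNA polymerase II paused, read 0, 6.92 and 35.3 upstream in HttQ89 and 18.0, 13.8 and 18.4 in HttQ23. Its peak over the TSS was the strongest TSS-overlapping peak in the table, at 2378, 1274 and 4199 in HttQ89 and 4143, 1959 and 4863 in HttQ23, and held the longer motif. WIZ, a zinc finger partner of histone methyltransferases, likewise had its motif over the TSS, where it read 1058, 576 and 1438 in HttQ89 and 1414, 886 and 1552 in HttQ23, against at most 27.2 upstream in any library.

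The order was the other way round at a smaller group of genes. SPEN had 60.7, 96.9 and 237 over the TSS in HttQ89 and 171, 115 and 146 in HttQ23, below its upstream peak in every library. TLE3, a Groucho-family corepressor, read 154, 130 and 325 at 931 bp upstream in HttQ89 and 328, 235 and 266 in HttQ23, while its TSS-overlapping peak stayed at or below 66.1 in all 6 libraries. The upstream log2 fold change of TLE3 was −0.55 ± 0.55 (SE, limma, adjusted p = 0.818). AOPEP, an aminopeptidase gene, read 185, 173 and 232 in HttQ89 and 228, 232 and 150 in HttQ23 at 13 bp upstream, against at most 35.3 over its other start. PPP2R5C, a regulatory subunit of protein phosphatase 2A, read 58.7, 40.5 and 66.1 in HttQ89 and 66.8, 53.1 and 42.9 in HttQ23 upstream, where the peak also held another transcript's TSS, against at most 7.00 over the TSS. ZNF503-AS1, an antisense RNA gene, read 92.7, 54.4 and 182 in HttQ89 and 169, 112 and 161 in HttQ23 at 939 bp upstream, against at most 29.7 over the TSS. In none of these genes did the HttQ89 and HttQ23 upstream values separate.

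**Figure D4:**
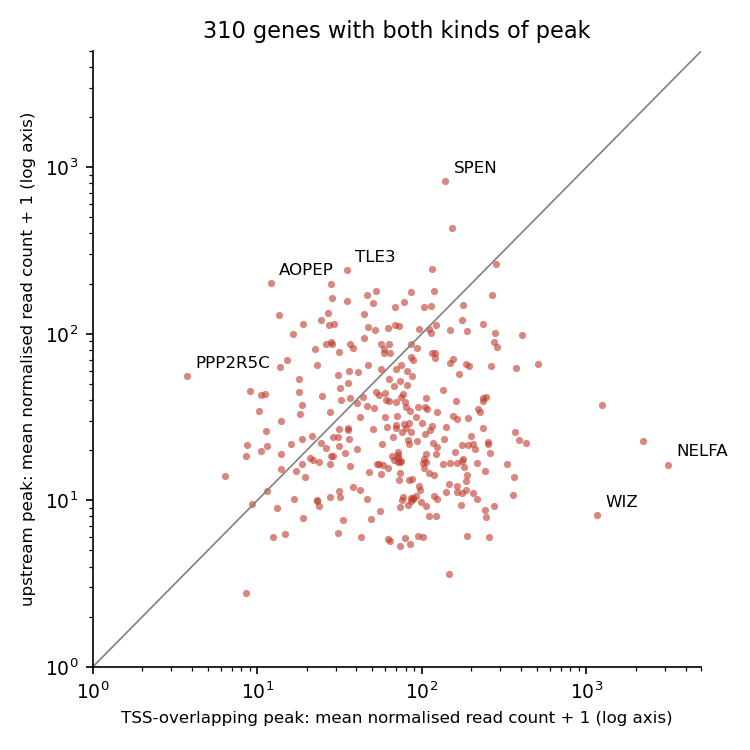
Mean normalised read count plus 1 over the 6 libraries of the TSS-overlapping peak (horizontal) and the upstream peak (vertical) of 310 genes, both on log axes, with the line of equality. Most points lie below the line, NELFA and WIZ farthest, while 82 genes, among them SPEN, TLE3, AOPEP and PPP2R5C, lie above it.

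The sequence under the peaks was searched on both strands. The core ATGGCG was found in 253 of 1226 upstream peaks (20.6%), in 28.6% of TSS-overlapping peaks and in 32.7% of all 23002 peaks, which have the same length apart from 1. The longer motif AANATGGCG, which contains the core, was found in 33 upstream peaks (2.69%), in 8.69% of TSS-overlapping peaks and in 5.43% of all. Downstream promoter peaks had the core ATGGCG in 22.2% and the longer motif in 4.29%. Upstream peaks held 113 core sites that ran with the gene and 167 that ran against it, or 0.230 and 0.340 per kb of peak sequence. TSS-overlapping peaks held 0.269 with the gene and 0.296 against it per kb upstream of the TSS, and 0.660 with the gene and 0.383 against it per kb downstream of the TSS, where the density of sense sites in the first 100 bases was 1.03 per kb. For the longer motif the sense and antisense strand marked 17 and 16 upstream peaks, against 694 and 290 TSS-overlapping peaks, in that order of strands. These shares describe sequences and were not tested.

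**Figure D5:**
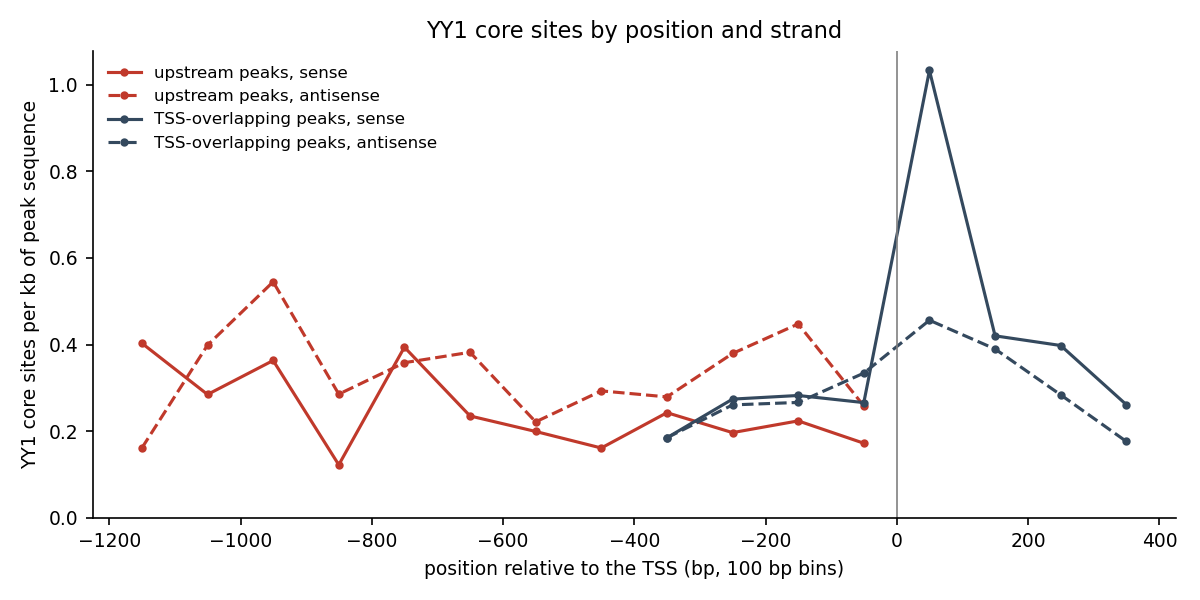
YY1 core sites per kb of peak sequence in 100 bp bins relative to the TSS, for upstream peaks (red) and TSS-overlapping peaks (grey), with sense sites as solid and antisense sites as dashed lines. The sense line of TSS-overlapping peaks reached 1.03 per kb just downstream of the TSS, a stretch that upstream peaks do not cover.

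Several other promoter elements also had lower shares upstream than over the TSS, and TATAAA did not. The ETS-type sequence CCGGAAG was in 7.67% of upstream and 17.4% of TSS-overlapping peaks (6.94% of downstream promoter peaks and 11.3% of all), and the NRF1-type sequence GCGCANGCG in 7.75% of upstream and 15.2% of TSS-overlapping peaks (9.77% of all). The GC box GGGCGG was in 79.9% of upstream and 88.1% of TSS-overlapping peaks (75.7% of all). Closer values were seen for CCAAT, in 26.3% of upstream and 27.7% of TSS-overlapping peaks (24.2% of all), and for the E-box CACGTG, in 9.95% of upstream and 10.9% of TSS-overlapping peaks (8.68% of all). The cAMP response element TGACGTCA was in 2.04% of upstream and 2.98% of TSS-overlapping peaks (1.73% of all), and TATAAA in 3.51% of upstream and 2.81% of TSS-overlapping peaks (6.73% of all). CCATNTT, the reverse complement of AANATGG and so overlapping the longer YY1 motif, was in 13.5% of upstream and 17.7% of TSS-overlapping peaks (18.97% of all).

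Presence of the core did not go with a stronger upstream peak. Core-bearing peaks had a median of 13.4, 18.8 and 38.01 in HttQ89 replicates 1, 2 and 3 and 27.6, 26.6 and 30.6 in HttQ23 replicates 1, 2 and 3. Peaks without the core had 15.4, 29.7 and 55.2 in the HttQ89 libraries and 48.8, 44.6 and 45.5 in the HttQ23 libraries. The core-bearing peaks were the lower in 6 of 6 libraries, with a difference of −0.57 ± 0.21 on the log2 scale (SD, n = 6, exact two-sided sign-flip p = 0.03125, Benjamini-Hochberg 0.0703). GC content differed between them, at a median of 65.6% with and 70.6% without the core. Within upstream peaks above 69.8% GC the difference was −0.01 (exact p = 0.906) and among the rest it was −0.31 (exact p = 0.219). The longer motif went the other way, with 33 peaks at a median of 42.2, 41.5 and 73.3 in HttQ89 and 52.0, 46.7 and 79.7 in HttQ23, which was 0.64 above the peaks without it (exact two-sided sign-flip p = 0.03125). That run lay outside the 9 corrected comparisons, and its p speaks for the libraries and not for the spread among the 33 peaks. Among the 100 strongest upstream peaks 27.0% held the core and 10.0% the longer motif, against 20.1% with the core and 2.04% with the longer motif among the other 1126.

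The second comparison asked whether YY1 at upstream peaks differed between HttQ89 and HttQ23 cells. No upstream peak passed with all 6 libraries. Of the 1226, 781 (63.7%) were above 0 in all 6 libraries and were tested, a filter that removes peaks lost in HttQ89 replicate 1, and 82.1% of TSS-overlapping peaks met it. limma called 0 of 781 at an adjusted p of 0.05 (0% of all 14698 tested peaks), with a lowest adjusted p of 0.818, and edgeR and DESeq2 on the recovered reads called 0 as well. At an unadjusted p of 0.05, 36 of 781 (4.61%) were lower and 0 were higher in HttQ89 with limma, beside 4.02% lower and 0.204% higher among all tested peaks, so the share upstream was near the background. edgeR had 5 lower (0.640%) and 2 higher (0.256%), beside 0.51% lower and 0.81% higher among all. DESeq2 had 7 lower (0.896%) and 5 higher (0.640%), beside 0.578% lower and 1.25% higher among all. The limma split was 5 lower and 5 higher (0.640% each) after median centring, beside 0.64% lower and 1.24% higher among all. After TMM scaling it was 6 lower (0.768%) and 5 higher (0.640%), beside 0.748% lower and 0.905% higher among all.

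These counts depended on which library was left out. When HttQ23 replicate 1 was left out, 12 of 810 upstream peaks (1.48%) were lower at an unadjusted p of 0.05 in limma, beside 0.985% of all peaks tested. Leaving out HttQ23 replicate 2 gave 12 of 807 (1.49%), beside 1.64%, and leaving out HttQ89 replicate 1 gave 15 of 1005 (1.49%), beside 1.18%. Without HttQ89 replicate 2 there were 37 lower and 1 higher of 804, and without HttQ23 replicate 3 there were 28 lower and 6 higher of 785. The share over all peaks was not computed for those runs, so these counts have no background to be read against. Leaving out HttQ89 replicate 3 gave 274 of 783 (34.99%), beside 30.4%, so the count moved with that of all peaks. Without HttQ89 replicate 3, limma called 41 of 783 upstream peaks at an adjusted p of 0.05, all of them lower in HttQ89, or 5.24%, beside 3.56% of all 14874 peaks tested (530 peaks). In HttQ89 replicate 3 itself, 13 of these 41 peaks (31.7%) had less than the mean of HttQ23, against 29.96% of the 781 tested upstream peaks. Calls made so for named peaks are given with their values. No upstream peak was called when any other single library was left out.

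The upstream peaks moved as a body with their library. Over the 781 tested peaks, the median shift from the HttQ23 mean of log2 values was −1.01, −0.76 and 0.28 on the log2 scale in HttQ89 replicates 1, 2 and 3 and 0.27, −0.16 and −0.05 in HttQ23 replicates 1, 2 and 3. HttQ89 replicate 3 was the highest of the 6 libraries and HttQ89 replicates 1 and 2 the lowest. The median log2 fold change stood at −0.55, with 679 negative values (86.9%), but the exact two-sided permutation p over libraries was 0.4 (Benjamini-Hochberg 0.6). Without HttQ89 replicate 1 the median was −0.23 and without HttQ89 replicate 3 it was −0.92. It was −0.01 after median centring and −0.06 after TMM scaling, which bring libraries to a common level by construction, so a loss of YY1 across all peaks and a lower yield of the immunoprecipitation cannot be told apart. Recovered reads numbered 927910, 1012558 and 2344649 in the HttQ89 libraries and 1943927, 1415890 and 2089917 in the HttQ23 libraries.

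Relative to peaks over the TSS the change upstream differed by less than the spread of the libraries. The median log2 fold change was −0.55 upstream and −0.50 over the TSS, a difference of −0.04 (exact two-sided permutation p = 0.4, Benjamini-Hochberg 0.6). That difference was 0.02 without HttQ89 replicate 1, so its sign rested on that library. In the 145 genes with both peaks tested the medians were −0.56 upstream and −0.57 over the TSS. By distance the medians were −0.53 at 1 to 100 bp and −0.50 at 501 to 1000 bp (difference −0.03, exact p = 1), although with peaks kept on a mean of at least 20 the difference was 0.21 (exact p = 0.8). Core-bearing peaks had a median of −0.40 and the others −0.57 (difference 0.17, exact p = 0.5, Benjamini-Hochberg 0.643), and without HttQ89 replicate 1 the difference was 9.47e-05.

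Separation of every library was rare. All HttQ89 libraries lay below all HttQ23 libraries in 34 of the 781 tested upstream peaks (4.35%), beside 4.27% of all tested peaks, and above them in 0, beside 0.537%. Among those 34, TTC34, a tetratricopeptide repeat gene, had the lowest p. Its peak at 18 bp upstream read 4.12, 4.94 and 5.43 in HttQ89 and 55.2, 26.6 and 12.3 in HttQ23, so that the HttQ89 values were close together and the HttQ23 values spread over several-fold. The HttQ89 values rest on few reads, since 1 read stood for 1.03, 0.988 and 0.905 in HttQ89 replicates 1, 2 and 3. The log2 fold change of TTC34 was −2.24 ± 0.86 (SE, limma p = 0.00907, adjusted p = 0.818), with an exact permutation p of 0.1. Separation of all libraries, by which these 34 peaks were chosen, fixes the exact permutation p at 0.1, the smallest that 3 against 3 can give. That exact p is therefore no further evidence for TTC34. DTNB, which encodes a dystrobrevin of the dystrophin complex, read 3.09, 55.3 and 66.1 in HttQ89 and 82.7, 99.8 and 84.9 in HttQ23 (log2 fold change −1.85 ± 0.74 (SE), limma, adjusted p = 0.818). HttQ89 replicate 1 stood far below the other HttQ89 libraries there, and without it the log2 fold change of DTNB was −0.55.

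HttQ89 replicate 1 also stood lowest at the antisense gene and the kinase gene described next. RNF157-AS1, an antisense RNA gene, read 2.06, 50.4 and 51.6 in HttQ89 and 85.9, 80.7 and 60.4 in HttQ23, with a log2 fold change of −1.91 ± 0.77 (SE, limma, adjusted p = 0.818) and of −0.54 without HttQ89 replicate 1. LRRK2, a kinase mutated in familial Parkinson's disease, read 9.27, 52.4 and 96.8 in HttQ89 and 147, 103 and 98.1 in HttQ23 (log2 fold change −1.61 ± 0.68 (SE), limma, adjusted p = 0.818). Without HttQ89 replicate 1 its log2 fold change was −0.67, and without HttQ89 replicate 3 its adjusted p in limma was 0.0451. Its peak, 16 bp from the TSS, held another transcript's TSS and faced the divergent transcript LRRK2-DT. MIR153-1, a microRNA gene, read 54.6, 45.5 and 131 in HttQ89 and 231, 153 and 134 in HttQ23 at 555 bp upstream, where HttQ89 replicate 3 lay just below the lowest HttQ23 library (log2 fold change −1.27 ± 0.61 (SE), limma, adjusted p = 0.818, and 0.0451 without HttQ89 replicate 3). Without HttQ89 replicate 1 the log2 fold change of MIR153-1 was −1.11. RABGAP1L, a regulator of RAB GTPases, had low values, at 4.12, 2.96 and 0.91 in HttQ89 and 5.30, 17.0 and 12.3 in HttQ23.

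Gene families were read by symbol patterns, so a few entries stand for neighbours of the family, such as RAB4A-AS1 for vesicle traffic or CDK5R1 for the cell cycle. Called upstream peaks numbered 0 in all 16 lists, and the median log2 fold change of all tested peaks was −0.50, the value to set each list beside, since median centring takes it away. Developmental transcription factors had 30 upstream peaks, 2.45% of upstream and 0.866% of TSS-overlapping peaks, with HOX, DLX, LHX, FOX and PAX genes among them. They had 378 of all 23002 peaks. Of the 20 tested, 16 had a negative and 4 a positive log2 fold change, with a median of −0.54. FOXK2, a forkhead repressor, was the strongest at 46.3, 158 and 297 in HttQ89 and 327, 259 and 246 in HttQ23 (log2 fold change −1.08 ± 0.56 (SE), limma, adjusted p = 0.818, and 0.0460 without HttQ89 replicate 3). HttQ89 replicate 3 lay between the HttQ23 values there and the other HttQ89 libraries below them. Without HttQ89 replicate 1 the log2 fold change of FOXK2 was −0.34.

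Neuronal channels, receptors and vesicle release genes also had 30 upstream peaks, 2.45% of upstream and 1.22% of TSS-overlapping peaks, with CACNA1H, GRIN1 and DRD1 among them. They had 350 of all 23002 peaks, and GRIN1, NRXN2, KCNIP2 and CACNA1H had repeated entries upstream. Of the 13 tested, 13 had a negative log2 fold change, with a median of −0.82, beside 82.8% negative among all tested peaks. KCNJ4, an inwardly rectifying potassium channel, was the strongest, with 63.8, 56.3 and 169 in HttQ89 and 180, 134 and 143 in HttQ23 (log2 fold change −0.82 ± 0.60 (SE), limma, adjusted p = 0.818). The 7 cell cycle peaks had a median of −0.52 over 7 tested. CCND1, which encodes cyclin D1, read 47.4, 99.8 and 230 in HttQ89 and 211, 160 and 189 in HttQ23 (log2 fold change −0.84 ± 0.58 (SE), limma, adjusted p = 0.818). WNT and Hippo genes had 10 upstream peaks and a median of −0.59 over 8 tested, with DVL1, a transducer of WNT signals, at 60.7, 54.4 and 86.9 in HttQ89 and 112, 110.5 and 49.0 in HttQ23.

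Housekeeping lists had few upstream peaks. Cytosolic ribosomal protein genes had 7, or 0.571% of upstream against 0.428% of TSS-overlapping peaks, of which 5 were tested, 2 with a negative and 3 with a positive log2 fold change and a median of 0.28. FBXL19, an F-box protein with a DNA-binding CXXC domain and 2 copies of the longer motif in its peak, led the 15 ubiquitin conjugation peaks (10 tested, median −0.57), at 282, 113 and 444 in HttQ89 and 123.03, 55.2 and 707 in HttQ23. Its log2 fold change was 0.51 ± 0.56 (SE, limma, adjusted p = 0.818) and −0.29 without HttQ23 replicate 2. HttQ23 replicate 3 stood far above the other HttQ23 libraries there. Chaperones had 1 upstream peak (DNAJC22), or 0.0816% against 0.491% of TSS-overlapping peaks, mitochondrial ribosomal proteins 2, the proteasome 2, oxidative phosphorylation 4 and vesicle traffic 8. Splicing factors had 5 (0.408% of upstream and 0.420% of TSS-overlapping peaks) and translation factors and tRNA synthetases 7 (0.571% of upstream and 0.616% of TSS-overlapping peaks). None of these shares was tested.

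The medians of these smaller lists over their tested peaks were −0.72 for the single chaperone, 0.46 and 0.36 for the single mitochondrial ribosomal protein and proteasome peaks, −0.35 over 3 for oxidative phosphorylation, −0.43 over 3 for splicing factors, −0.60 over 4 for translation factors and −0.76 over 4 for vesicle traffic. Zinc finger genes had 38 upstream peaks and a median of −0.51 over 28 tested, led by ZNF367 at 186, 188 and 497 in HttQ89 and 466, 224 and 409 in HttQ23. Antisense, divergent and intergenic noncoding RNA genes had 79 upstream peaks and a median of −0.41 over 44 tested, led by TPBGL-AS1 at 247, 207 and 463 in HttQ89 and 609, 298 and 409 in HttQ23. YY1 and its partners had 2 upstream peaks, at RYBP and HCFC1, with a median of −0.41. RYBP, a Polycomb protein that binds YY1, read 28.8, 49.4 and 55.2 in HttQ89 and 76.4, 61.6 and 40.3 in HttQ23, and the groups overlapped.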

How the data were processed

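YY1 ChIP-seq libraries of HttQ89 and HttQ23 cells (3 each) were analysed. The submitters' processing notes and the methods name FastQC 0.11.8, then Cutadapt 3.7 for trimming and Bowtie2 2.4.1 for alignment against GRCh38.p14. The authors kept uniquely aligned reads with Sambamba, dropped those in blacklisted regions with BEDTools 2.29.2, called peaks with MACS3 3.0.1 against input and annotated them with ChIPseeker 1.38.0. The sources used here do not say if peak calling pooled the replicates. The deposited values are a signal made by the authors with DiffBind, reads per peak scaled to sequencing depth, which keeps differences in immunoprecipitation yield. Each library held whole multiples of 1 step (100% of values within 0.1 reads), so reads were recovered, 927910 to 2344649 per library.

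Peaks above 0 in all 6 libraries were tested on log2(value + 1), which understates changes of weak peaks, with limma 3.58.1 (trend, two-sided, R 4.3.3) and Benjamini-Hochberg adjustment over 14698 peaks. The prior degrees of freedom came out infinite, so a standard error depends on the strength of a peak alone. edgeR 4.0.16 and DESeq2 1.42.0 on recovered reads, other filters, pseudocounts, scalings and left-out libraries were alternatives. Library values were compared with exact tests. The study describes the replicates as independent biological ones. The limma step was checked on simulated counts drawn without any shift of whole libraries, which the real libraries showed.

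Motifs were looked for on each strand of GRCh38, and positions were checked against GENCODE v44. Members, lists, motifs and comparisons were chosen with earlier results of these data known. Named peaks were the 12 strongest, the strongest of each distance band, the 6 with the lowest p per direction without overlap between groups, 6 genes with the largest and 2 with the smallest ratio to their TSS-overlapping peak (mean of at least 50 in the stronger), the strongest of each of 16 lists and the 4 strongest with the longer motif. Not every named peak is described, and some items are not reported here. The HTT locus is not analysed here.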

Additional observations from a re-analysis of the deposited data

How the results depend on the processing

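The lower level of upstream than TSS-overlapping peaks, of upstream peaks within genes and of far than near upstream peaks kept its direction under every alternative run, namely another pseudocount, a filter on values above 0, means in place of medians, upper and lower GC content (not run for the pairs within genes), each left-out library and, for the first, genes without a TSS-overlapping peak. With 5 libraries the smallest exact p is 0.0625, so no left-out setting could pass 0.05. Leaving out each library gave −0.98 to −0.87 for upstream minus TSS-overlapping, −1.39 to −1.23 within genes, 1.18 to 1.34 for near minus far and −0.65 to −0.53 for core minus none. Keeping only peaks above 0 in all libraries gave −0.45 for the first and 0.72 for near minus far. The core difference was −0.27 with means of log2 values, −0.00544 above and −0.31 at or below the median GC (this split was added after seeing the data), and 0.64 with the longer motif.

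Left-out libraries moved the median log2 fold change between −0.92 and −0.23, the difference to TSS-overlapping peaks between −0.0929 and 0.0217, the difference in the share at 0 between −1.29 and 10.6 percentage points, the core difference in fold change between 9.47e-05 and 0.28, and the called peaks between 0 and 41. Near minus far in fold change was 0.21 with a mean of at least 20. The log2 fold change was 0.0112 at TMEM131 after median centring and between −0.29 (without HttQ23 replicate 2) and 1.54 at FBXL19 over the left-out libraries. Shifts taken from the mean of the 6 libraries, also added after seeing the data, changed no call.

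Deviations of same-numbered libraries correlated at 0.04, 0.39 and 0.15 over 14698 peaks. HttQ89 replicates 2 and 3 correlated best with the HttQ23 library of the same number, and HttQ89 replicate 1 with HttQ23 replicate 3 (0.13). These values do not settle whether the numbers pair the samples. With the replicate block limma called 0 upstream peaks and 1 peak in all, and over 3 pairs, where the smallest exact p is 0.25, the level differences were −0.94, −1.34, −0.57 and 1.27. Weak peaks rest on few reads, and the share of upstream peaks at 0 was 25.4% in HttQ89 replicate 1 (927910 recovered reads in peaks) and 7.01% in HttQ89 replicate 2 (1012558 reads). Reads in peaks are not the sequencing depth of a library. The step that 1 read stood for after scaling to depth was 1.03 in HttQ89 replicate 1 and 0.988 in HttQ89 replicate 2. It was 1.06 in HttQ23 replicate 1, where 8.65% of upstream peaks were at 0. The part of depth in these zeros was not tested.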
